A study of Mus musculus with 12 samples.

Results

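The 10 genes described here are markers of hepatic stellate cells and genes of the extracellular matrix. They were taken as a fixed list of gene symbols, chosen with earlier results of these data known, and were matched to the Ensembl identifiers of the deposited table. They cover 10 of the 16346 genes of that table. Their roles are vitamin A storage (*Lrat*), secreted glycoproteins of quiescent stellate cells (*Reln*, *Colec11*), the cytoskeleton (*Des*), latency of transforming growth factor beta (*Ltbp1*) and the matrix itself (*Col1a1*, *Col1a2*, *Col3a1*, *Dcn*, *Ecm1*). All 10 had a mean normalized count of at least 10 and were among the 12366 genes tested.

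RNA was sequenced from whole livers of 12 C57BL6J mice aged 12 weeks, in 6 groups of 2. All mice carried the floxed *Med13* fl/fl alleles, and MED13-LKO mice also carried Cre recombinase under the albumin (*Alb*) promoter, which acts in hepatocytes and is not a driver for stellate cells. In each genotype 1 group was fasted for 16 h, and the others were refed for 4 h with normal chow and with water that held 30% sucrose or 30% fructose. The groups are called fasted, sucrose and fructose, and the mice without Cre are called control.

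Stellate cells lie between the sinusoidal endothelium and the hepatocytes and hold most of the body's vitamin A as retinyl esters in lipid droplets. In the healthy liver they are quiescent, and after injury they can turn into contractile myofibroblasts that secrete fibrillar collagens. Type I collagen is built from *Col1a1* and *Col1a2* chains, type III collagen from *Col3a1* chains, and decorin (*Dcn*) is a small proteoglycan that binds to collagen fibrils.

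Promoters are shown for 3 genes that carried called differences, *Col1a2* as a chain that was higher after sucrose and *Col3a1* and *Des* as genes that were lower in the libraries labelled MED13-LKO. Each is the 250 bases before the RefSeq start on GRCm38.p6, on the gene's own strand. They span chr6:4505368-4505617 for *Col1a2*, chr1:45311288-45311537 for *Col3a1* and chr1:75360042-75360291 for *Des*, all on the plus strand. Capitals mark exact matches to 4 short motifs, searched on both strands, so that a match on the minus strand is printed as the reverse complement. A TATA box was searched as the run TATAAA, which is bound by the general transcription machinery. The CCAAT box was searched by the letters in its name. A GC box was the run GGGCGG, bound by Sp1 and related factors. The CAGACA element holds the letters that Smad proteins can bind. No matches overlapped each other in these 3 windows.
Col1a2: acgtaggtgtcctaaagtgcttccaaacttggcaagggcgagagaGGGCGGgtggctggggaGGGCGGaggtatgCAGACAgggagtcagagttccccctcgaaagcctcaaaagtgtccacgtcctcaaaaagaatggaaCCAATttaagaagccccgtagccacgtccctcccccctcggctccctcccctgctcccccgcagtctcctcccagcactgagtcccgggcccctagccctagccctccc
Col3a1: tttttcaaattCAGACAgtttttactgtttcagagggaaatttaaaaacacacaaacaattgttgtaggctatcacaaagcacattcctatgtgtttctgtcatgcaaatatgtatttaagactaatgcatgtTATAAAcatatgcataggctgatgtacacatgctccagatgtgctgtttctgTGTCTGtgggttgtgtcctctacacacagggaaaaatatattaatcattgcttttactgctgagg
Des: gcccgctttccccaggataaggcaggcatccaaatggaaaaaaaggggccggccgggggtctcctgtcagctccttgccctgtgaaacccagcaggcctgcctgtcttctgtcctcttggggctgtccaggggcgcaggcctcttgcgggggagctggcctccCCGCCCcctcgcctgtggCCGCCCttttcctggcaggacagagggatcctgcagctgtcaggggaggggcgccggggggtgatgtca
The *Col1a2* window held 2 GC boxes, 1 CAGACA element and 1 CCAAT box, which began 109 bases before the start. The *Col3a1* window held 1 match to the TATA box, which began 117 bases before the start, and a CAGACA element on each strand. The *Des* window held 2 GC boxes. Of 32851 RefSeq promoters of the same length, 12.4% held the TATA box, 33.8% the CCAAT box, 32.7% the GC box and 17.1% the CAGACA element. Base composition separated the windows more clearly, with 35.2% G and C before *Col3a1*, 62% before *Col1a2* and 67.2% before *Des*. RefSeq promoters were found for 8 of the 10 genes, and those of *Col1a1* and *Dcn* were not used here.

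Sums of the normalized counts ran from 21060000 to 24150000 over the control libraries and from 17310000 to 18740000 over those labelled MED13-LKO, with estimated reads on genes of 18710000 to 21390000 and 16080000 to 24210000. Values below are on the deposited scaling and are not shares of the sums. *Med13* itself, the targeted gene, lay at 674 and 796 (fasted), 578 and 673 (sucrose) and 607 and 778 (fructose) in control libraries. In those labelled MED13-LKO it lay at 808 and 899, 646 and 717, and 681 and 1055. The RNA of the targeted gene was therefore not lower there (log2 fold change 0.22, SE 0.115, limma adjusted p = 0.201), and since a value for the whole gene does not separate transcripts with and without the floxed exons, the genotype is given throughout as labelled. In whole liver, fewer cells of a type and less RNA per cell cannot be told apart.

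Per kilobase of the longest coding transcript, which allows levels to be set beside each other between genes, *Dcn* was the most abundant, with a mean of 1821 normalized counts per kb over the 12 libraries. *Ecm1* (737) and *Colec11* (291) followed. *Reln* (97.4), *Lrat* (80.9) and the collagen chains *Col1a1* (63.8), *Col3a1* (61.8) and *Col1a2* (60.8) lay close to each other, *Des* (40.3) lay lower, and *Ltbp1* (5.31) was the least abundant. The order of the collagen chains changed between libraries. Within libraries the ratio per kb of *Col1a1* to *Col1a2* ran from 0.927 to 1.26, and that of *Col1a1* to *Col3a1* from 0.665 to 1.89.

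**Figure D1:**
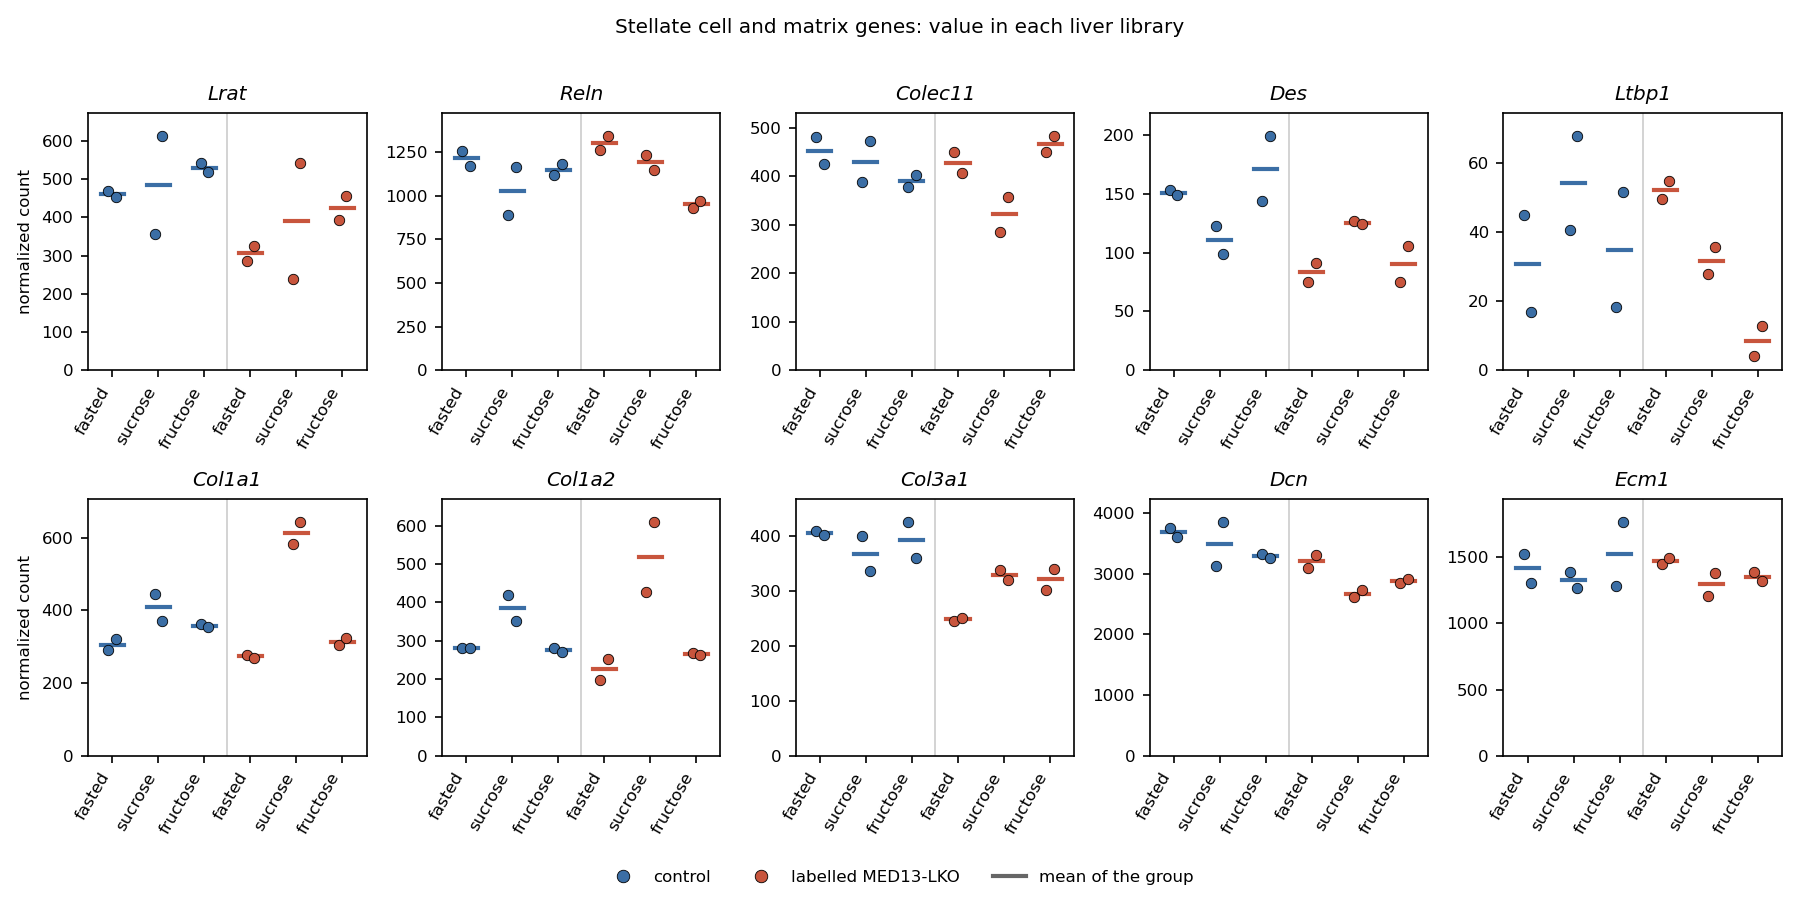
Normalized count (linear axis from 0) of each of the 10 genes in each of the 12 libraries, by group. Points are libraries (1 mouse each, 2 per group), short lines are group means, blue is control and red is labelled MED13-LKO. *Col1a1* is highest in the sucrose libraries labelled MED13-LKO (583 and 643), and *Col3a1* is lowest in the fasted libraries of that genotype (245 and 251).

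The first comparison asked how the livers of both genotypes differed over the 3 diets. Of the 10 genes, 3 were lower in the libraries labelled MED13-LKO and none was higher, while 7 were not called at an adjusted p under 0.05 (limma, 6 against 6 libraries). Of all genes tested, 25.3% were called, and 13.2% of all genes tested were lower. The median log2 fold change of the 10 genes was -0.17, beside 0.01 for all genes tested. The genes that fell were *Col3a1*, *Dcn* and *Des*, and each call held in every alternative fit and without any 1 of the 12 libraries. None of these fits scaled the libraries to equal sums of normalized counts. Those sums were lower in every library labelled MED13-LKO than in any control library.

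*Col3a1* (ENSMUSG00000026043, GRCm38 chr1:45311538-45349706), the chain of type III collagen, had the smallest adjusted p of the 3. Its normalized counts were 409 and 401 in the fasted, 400 and 335 in the sucrose and 425 and 359 in the fructose control libraries. The libraries labelled MED13-LKO held 245 and 251, 338 and 319, and 302 and 339. Those 6 values reached from 245 to 339 and the control values from 335 to 425, so that the groups overlapped only in a sucrose control library. The log2 fold change was -0.38 (SE 0.074, limma adjusted p = 0.00463), and the means were 388 ± 34 (SD, n = 6) in control and 299 ± 42 (SD, n = 6) in the other genotype. The difference was greatest in the fasted state, where it was -0.71 (SE 0.128, adjusted p = 0.00903). In the sucrose libraries it was -0.16 (adjusted p = 0.551) and in the fructose libraries -0.29 (adjusted p = 0.214). Without any of the 4 fasted libraries the call in the fasted state was lost (adjusted p up to 0.0615). The change of this difference from fasted to sucrose, 0.55, was not called (adjusted p = 0.442).

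*Dcn* (ENSMUSG00000019929, chr10:97479609-97518143), decorin, lay at 3752 and 3607, 3128 and 3853, and 3319 and 3262 in the fasted, sucrose and fructose control libraries. In those labelled MED13-LKO it lay at 3100 and 3314, 2609 and 2723, and 2838 and 2906. The sucrose and fructose libraries of that genotype were below all 6 control libraries, and 1 of the fasted ones lay within the control range. On the deposited scaling the log2 fold change was small, -0.26 (SE 0.055, limma adjusted p = 0.00735), from 3487 ± 292 (SD, n = 6) to 2915 ± 257 (SD, n = 6). The median sum of normalized counts was 22230000 in control libraries and 17800000 in those labelled MED13-LKO. A change of *Dcn* with equal sums was not tested. Within diets only the sucrose difference was called, -0.38 (SE 0.0953, adjusted p = 0.0447), and it was lost in 9 of the 12 fits that left out 1 library (adjusted p up to 0.234), in those without control sucrose replicate 2 or either sucrose library labelled MED13-LKO among them.

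*Des* (ENSMUSG00000026208, chr1:75360329-75368579) encodes desmin, the intermediate filament of stellate and muscle cells. Control libraries held 153 and 149 (fasted), 123 and 99.1 (sucrose) and 144 and 199 (fructose) normalized counts. Those labelled MED13-LKO held 75.4 and 91, 127 and 124, and 74.7 and 106. Fasted and fructose libraries of that genotype were low, and its sucrose libraries were above the sucrose control libraries. Averaged over diets, *Des* had a log2 fold change of -0.53 (SE 0.129, limma adjusted p = 0.0144). It was -0.86 (SE 0.224, adjusted p = 0.0418) in the fasted state and -0.92 (SE 0.224, adjusted p = 0.0359) with fructose, and 0.19 (SE 0.224, adjusted p = 0.704) with sucrose. Leaving out 1 library ended the fasted call in 6 of 12 fits and the fructose call in 6 of 12, with adjusted p up to 0.187 and 0.185. From fasted to sucrose *Des* moved by -0.45 in control and by 0.60 in the other genotype, a difference of 1.05 (SE 0.317, limma adjusted p = 0.403) that was not called.

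*Lrat* (ENSMUSG00000028003, chr3:82892579-82903973), the lecithin retinol acyltransferase that makes retinyl esters, is a widely used marker of stellate cells. It lay at 469 and 453, 357 and 612, and 541 and 519 in the fasted, sucrose and fructose control libraries, and at 287 and 326, 238 and 543, and 394 and 457 in those labelled MED13-LKO. The pairs of fasted and of fructose libraries were each lower in that genotype without overlap, as pairs were in 1 direction or the other for 57.1% and 50.2% of all genes tested, while the sucrose libraries spread 1.72-fold and 2.28-fold within their groups. Its log2 fold change for the genotype was -0.43 (SE 0.193, 95% interval -0.86 to 0.00) and was not called (limma adjusted p = 0.137). Over the fits without 1 library it ran from -0.63, without the second sucrose library labelled MED13-LKO, to -0.23. Single libraries therefore moved this estimate in both directions.

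The other 6 genes were not called over the diets either. *Reln* (reelin, a secreted glycoprotein; log2 fold change 0.02, SE 0.0686), *Colec11* (a collectin that binds sugars on microbes; -0.08, SE 0.0822) and *Ecm1* (extracellular matrix protein 1; -0.05, SE 0.0825) had 95% intervals within -0.26 and 0.17. The chains of type I collagen, *Col1a1* (0.08, SE 0.0685) and *Col1a2* (0.01, SE 0.103), had intervals within -0.22 and 0.24 over the diets and are described below by diet. *Ltbp1* (-0.58, SE 0.365) was the least precisely measured, at between 4.1 and 67.8 normalized counts.

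No gene of the 10 separated all 6 libraries of a genotype from all 6 of the other, against 8.85% of all genes tested. Within the fasted state 2 of the 10 genes were called, *Col3a1* and *Des*, beside 8.98% of all genes. With sucrose 2 were called, *Dcn* lower and *Col1a1* higher, beside 6.03% of all genes. With fructose only *Des* was called, beside 7.69%.

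**Figure D2:**
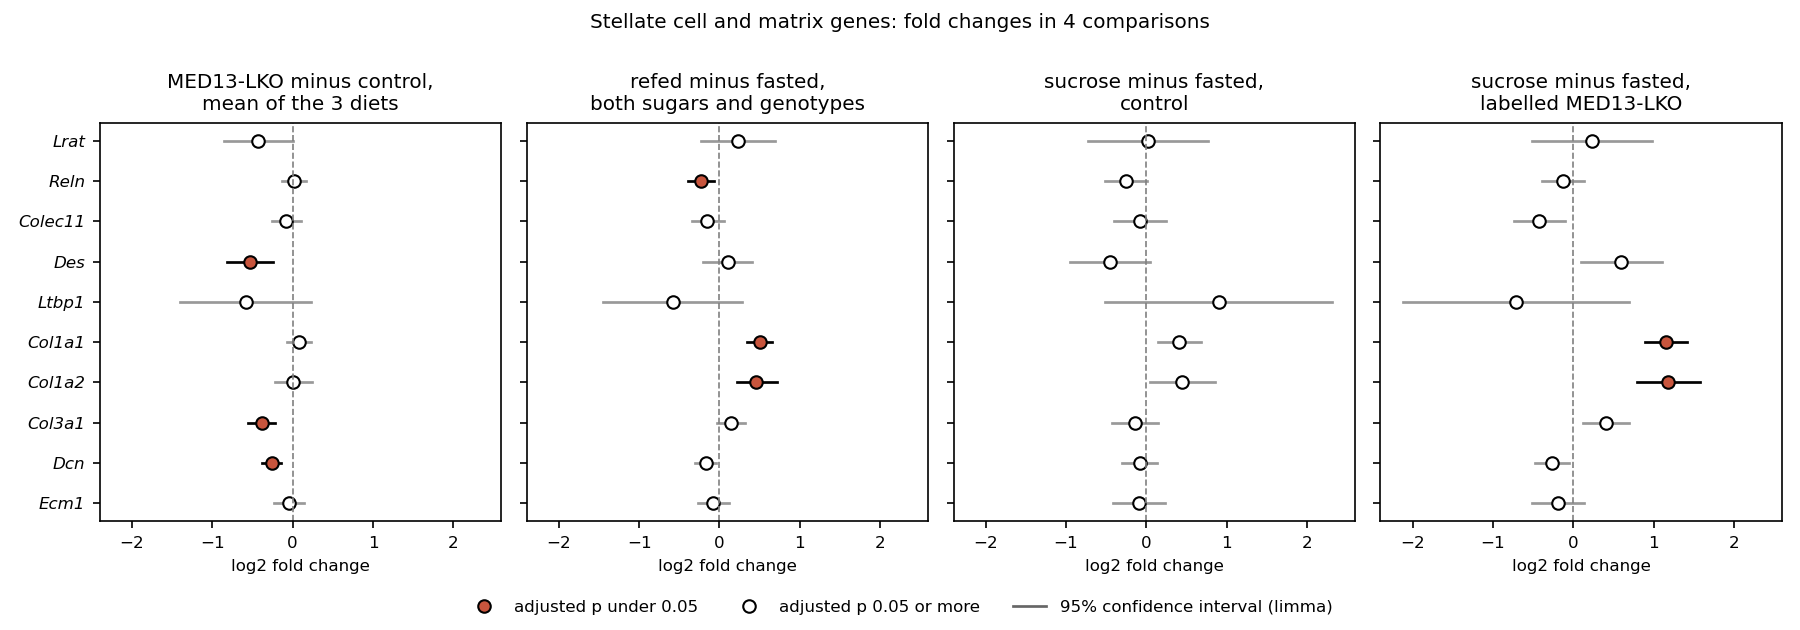
Log2 fold change (x axis) of each of the 10 genes in 4 comparisons, with the 95% confidence interval of the limma fit as a line. Filled points have an adjusted p under 0.05. *Col3a1*, *Dcn* and *Des* are filled on the lower side for the genotype, and *Col1a1* and *Col1a2* on the higher side for refeeding.

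The second comparison asked how refeeding moved the same genes. By the paper's methods the refed mice were killed later in the day than the fasted mice. Refeeding and time of day therefore cannot be told apart in comparisons of refed with fasted livers. No group was refed with chow and plain water, so the parts of chow and of sugar in these changes cannot be told apart either. Over both sugars and genotypes, 2 of the 10 genes were higher in refed livers, *Col1a1* and *Col1a2*, and 1 was lower, *Reln*. Of all genes tested, 21.8% were called in this comparison. The median log2 fold change was 0.01 for the 10 genes and -0.01 for all genes.

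*Col1a1* (ENSMUSG00000001506, chr11:94936224-94953042) lay at 290 and 321 normalized counts in the fasted, 445 and 370 in the sucrose and 362 and 353 in the fructose control libraries. In those labelled MED13-LKO it lay at 278 and 269, 583 and 643, and 304 and 323. Its partner chain *Col1a2* (ENSMUSG00000029661, chr6:4504814-4541544) lay at 282 and 280, 420 and 351, and 281 and 271 in the control libraries, and at 198 and 252, 426 and 610, and 268 and 263 in the others. Both chains were higher in the 4 sucrose libraries than in any of the 4 fasted or the 4 fructose libraries, which held for 8.17% of all genes tested against the fasted and for 1.25% against the fructose libraries.

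With refeeding *Col1a1* rose by 0.50 on the log2 scale over both sugars (SE 0.0727, limma adjusted p = 0.00131), and this call held without any 1 library and in every alternative fit. *Col1a2* rose by 0.46 (SE 0.109, adjusted p = 0.0145), a call lost without control fasted replicate 2 or without MED13-LKO fasted replicate 1 (adjusted p up to 0.0668). In the libraries labelled MED13-LKO, *Col1a1* rose with sucrose by 1.16 (2.23-fold, SE 0.119, adjusted p = 0.0014) and *Col1a2* by 1.18 (2.27-fold, SE 0.178, adjusted p = 0.00561). These were the 2 of 10 genes called there, beside 5.71% of all genes. Without MED13-LKO sucrose replicate 2 the *Col1a2* change was 0.93 and missed the threshold (adjusted p = 0.0502), and *Col1a1* passed without any 1 library.

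In control mice the sucrose responses were 0.41 for *Col1a1* (SE 0.119, limma adjusted p = 0.0607) and 0.45 for *Col1a2* (SE 0.178, adjusted p = 0.154). None of the 10 genes was called, beside 8.57% of all genes, and 2 of 10 had an unadjusted p under 0.05 in limma. The difference in the sucrose response between genotypes was 0.75 for *Col1a1* (SE 0.168, limma adjusted p = 0.251) and 0.73 for *Col1a2* (SE 0.252, adjusted p = 0.471). It was called for none of the 10 genes, 4 of which had an unadjusted p under 0.05, and for 0.146% of all genes. So a larger response in the libraries labelled MED13-LKO was not established after adjustment. Among the sucrose libraries alone, *Col1a1* was higher in that genotype than in control by 0.59 (SE 0.119, adjusted p = 0.0188), and this call was lost without control sucrose replicate 2 or either sucrose library labelled MED13-LKO (adjusted p up to 0.13).

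With fructose none of these chains was called. *Col1a1* changed by 0.23 in control and by 0.20 in the other genotype (SE 0.119 for both, limma adjusted p = 0.28 and 0.358), and *Col1a2* by -0.03 and 0.25 (SE 0.178 for both, adjusted p = 0.952 and 0.453). In the libraries labelled MED13-LKO, *Col1a1* was 0.96 lower on the log2 scale with fructose than with sucrose (log2 fold change -0.96, SE 0.119, adjusted p = 0.0258), 1 of only 5 genes called in that comparison, or 0.0404% of all genes. That call was lost in 8 of the 12 fits without 1 library (adjusted p up to 0.368), among them each of the 6 that left out a library of that genotype. In control mice the same difference was -0.18 for *Col1a1* and -0.48 for *Col1a2* (adjusted p = 0.742 and 0.499), and none of the 10 genes was called by limma, beside 0.0404% of all genes, with 2 at an unadjusted p under 0.05.

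The levels of both type I chains stayed close to each other. Per kb of transcript, the ratio of *Col1a1* to *Col1a2* ranged from 0.927 to 1.26 over the 12 libraries, with a median of 1.025. The ratio of *Col1a1* to *Col3a1* ranged more widely, from 0.665 to 1.89. It was 0.665 and 0.75 in the fasted control libraries and 1.62 and 1.89 in the sucrose libraries labelled MED13-LKO, where *Col1a1* was high and *Col3a1* lay in the middle of its range. *Col3a1* did not pass the test for refeeding (0.14, SE 0.0785, limma adjusted p = 0.222). Its changes with sucrose were -0.14 in control and 0.41 in the libraries labelled MED13-LKO (adjusted p = 0.527 and 0.0994), and with fructose they were -0.05 and 0.37 (adjusted p = 0.85 and 0.12).

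**Figure D3:**
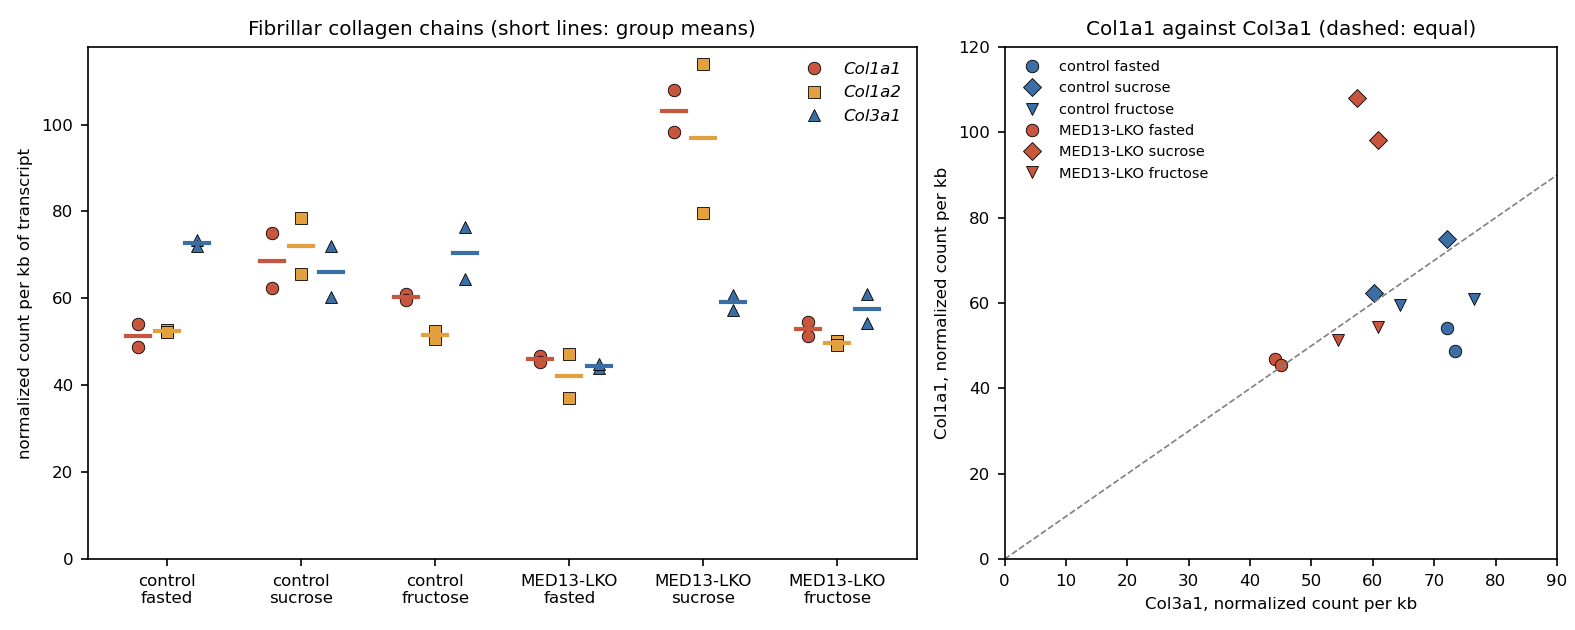
Left, normalized count per kb of transcript for *Col1a1*, *Col1a2* and *Col3a1* in each library by group, with short lines as group means (n = 2). Right, *Col1a1* against *Col3a1* per kb in the same 12 libraries, with a dashed line where they are equal. The 2 sucrose libraries labelled MED13-LKO lie apart from the other 10, at 1.62 and 1.89 times as much *Col1a1* as *Col3a1*.

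*Reln* (ENSMUSG00000042453, chr5:21884454-22344702) lay at 1257 and 1171, 889 and 1165, and 1118 and 1179 in the control libraries in the same order of diets. In those labelled MED13-LKO it lay at 1264 and 1340, 1236 and 1150, and 930 and 970. The values were lowest in 1 sucrose control library and in both fructose libraries labelled MED13-LKO, and the refed range reached into the fasted range. The refeeding change was -0.23 (SE 0.0727, limma adjusted p = 0.0488), at the edge of the threshold, and was lost in 10 of the 12 fits without 1 library (adjusted p up to 0.155), in each of the 4 without a fasted library among them. It was also lost with a pseudocount of 0.1, no filter, equal 75th percentiles and a replicate block, with limma adjusted p up to 0.0762.

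*Ltbp1* (ENSMUSG00000001870, chr17:75005568-75392512) encodes a latent transforming growth factor beta binding protein. It lay at 44.9 and 16.8, 40.7 and 67.8, and 18.2 and 51.7 in the control libraries, and at 49.7 and 54.9, 27.8 and 35.7, and 4.1 and 12.7 in those labelled MED13-LKO. Control pairs differed by up to 2.84-fold between mice, and the fructose libraries labelled MED13-LKO were the lowest of all 12. With fructose *Ltbp1* fell by 2.67 on the log2 scale in that genotype (SE 0.633, limma adjusted p = 0.0357), the only gene of the 10 called there, beside 6.53% of all genes. This call was lost without any 1 of the 6 libraries labelled MED13-LKO (adjusted p up to 0.157), and in control mice the change was 0.15 (adjusted p = 0.915). The difference between genotypes in the fructose response, -2.83, had an adjusted p of 0.417 in limma, and it was called for none of the 10 genes and for 0.0243% of all genes, with 3 of the 10 at an unadjusted p under 0.05. With fructose in control mice, limma called none of the 10, beside 5.6% of all genes, and none had an unadjusted p under 0.05.

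*Colec11* (ENSMUSG00000036655, chr12:28594173-28623377) lay between 378 and 482 in 10 of the 12 libraries and at 285 and 358 in the sucrose libraries labelled MED13-LKO. Its change there was -0.42 (SE 0.142, limma adjusted p = 0.122). *Ecm1* (ENSMUSG00000028108, chr3:95734147-95739569) lay between 1211 and 1769, with the highest value in a fructose control library, and changed by -0.08 with refeeding (SE 0.0875, adjusted p = 0.568). *Lrat* changed by 0.23 with refeeding (SE 0.205, 95% interval -0.23 to 0.69, adjusted p = 0.456), *Des* by 0.10 (SE 0.137, adjusted p = 0.628) and *Dcn* by -0.17 (SE 0.0584, adjusted p = 0.0683). Up to 5.28% of the 31-base subsequences of any of the 10 genes also occur in another gene, the most for *Des*, and for *Col3a1* and *Colec11* the shares were 1.12% and 0%.

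The genes most like *Lrat* over the 12 libraries were *Sugt1* (Pearson r = 0.900), *Eapp* (0.849), *Wnt4* (0.843), *Prelid3b* (0.840) and *Gm8893* (0.834), of which none is among the 10. Without the 2 libraries farthest from the median of *Lrat*, these r fell to between 0.630 and 0.766. For *Col1a1* the gene most like it among all genes tested was *Col1a2* (r = 0.929, and 0.845 over 10 libraries), followed by *Sox5* (0.921), *Zfp654* (0.898), *Tmem18* (0.895) and *Zadh2* (0.892). Those 10 libraries leave out the 2 farthest from the median of *Col1a1*. Over them r was 0.845 for *Sox5*, 0.673 for *Zfp654*, 0.675 for *Tmem18* and 0.964 for *Zadh2*. *Zfp654* ranged from 0 to 65.1 normalized counts. With *Lrat* as the reference, the other 9 genes had r of -0.150 to 0.487, the highest for *Dcn*. The points are libraries of the 6 groups, and these values describe them with no test.

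The rest of the stellate and matrix programme was read from 19 other gene lists, by how many of the genes tested passed in each direction. Of all genes tested, 25.3% were called for the genotype and 21.8% for refeeding, and counts in the lists are to be read beside these shares. The lists were chosen with earlier results of these data known, so the counts and medians are descriptions and not tests. Among other markers of stellate cells, 22 were tested and 3 were called for the genotype. *Tmem56* (4475 ± 734 against 5781 ± 1730, SD, n = 6) and *Fcna* were higher in the libraries labelled MED13-LKO, by 0.34 and 0.25 (limma adjusted p = 0.00734 and 0.0423), and *Adamtsl2*, which encodes a secreted matrix glycoprotein, was lower (from 120 ± 27 in control to 62.6 ± 26.9, SD, n = 6, limma adjusted p = 0.0111). The list's median was -0.00, beside 0.01 for all genes. For refeeding *Nes* (nestin, 0.87) and *Tcf21* (0.59) rose and *Tmem56* (-0.57) fell, and the median was -0.00. *Gfap* was at 0 in at least 1 library. The *Fcna* call was lost in 10 of the 12 fits without 1 library, and that of *Tcf21* without control fasted replicate 2 or MED13-LKO fasted replicate 1.

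Of 14 genes of myofibroblast activation, 2 rose and 3 fell with the genotype (median -0.19). *Acta2*, smooth muscle actin, fell from 34.2 ± 4.06 to 21.7 ± 5.63 (SD, n = 6; log2 fold change -0.66, limma adjusted p = 0.0268), and *Tagln*, transgelin, fell by 0.34 (adjusted p = 0.0448). *Mmp14*, a membrane-bound matrix protease, rose from 309 ± 81 to 623 ± 49.1 (1.05, adjusted p = 1.41e-05), and *Postn*, periostin, rose by 0.35 (adjusted p = 0.0364). The calls of *Acta2*, *Tagln* and *Postn* were lost in 6, 11 and 8 of the 12 fits without 1 library. That of *Tagln* was also lost with no filter, with equal 75th percentiles and with a replicate block. With refeeding *Ccn2*, a connective tissue growth factor, fell by 1.58 on the log2 scale (adjusted p = 0.000388) while *Mmp14* rose by 0.46 (adjusted p = 0.00399), and the list's median was 0.11.

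Of 14 other collagens, *Col18a1* (-0.54) and *Col27a1* (-1.01) fell and *Col12a1* (0.99) rose with the genotype (limma adjusted p = 0.000133, 0.000266 and 0.0243; median -0.09). *Col18a1*, whose product is a collagen of basement membranes, was by far the most counted of them, at 13154 ± 1024 in control and 9068 ± 1150 in the other genotype (SD, n = 6). With refeeding *Col15a1* (1.65) and *Col27a1* (0.62) rose and *Col18a1* (-0.24) fell, with a median of -0.04. Leaving out 1 library ended the *Col12a1* call in 5 of 12 fits and the refeeding call of *Col18a1* in 3, each without a fasted library. Of 28 proteoglycans, laminins and matrix glycoproteins, 5 fell and 2 rose with the genotype, among them *Ogn* (-0.68), *Sparcl1* (-0.54), *Efemp1* (-0.47) and *Nid2* (0.58), and the median was -0.05. The *Nid2* call was lost in 10 of 12 fits without 1 library. None of the 28 was called for refeeding by limma, and 3 had an unadjusted p under 0.05 (median -0.01).

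Of 20 enzymes that modify and fold collagen, *P4ha2* rose (0.45) and *P4hb* fell (-0.43) with the genotype, both subunits of prolyl 4-hydroxylase, and *Bmp1* (-0.28) and *Plod1* (-0.22) fell with refeeding. The medians were -0.05 and -0.02. Of 10 enzymes and inhibitors of matrix breakdown, 5 rose with refeeding and none fell, namely *Reck* (0.78), *Mmp15* (0.51), *Mmp19* (0.51), *Mmp14* (0.46) and *Adamts1* (0.37), and the median was 0.43. The refeeding call of *Reck* was lost without any 1 of the 4 fasted libraries, and that of *Plod1* in 3 of 12 fits without 1 library, each a fasted one. With the genotype *Mmp14* rose and *Reck*, a membrane-anchored inhibitor of such proteases, fell (-1.29, limma adjusted p = 0.00106), with a median of 0.11. Of 22 genes of the transforming growth factor beta pathway, *Itgb8* (-1.90), *Ltbp4* (-0.48) and the receptor gene *Tgfbr1* (-0.38) fell and the inhibitory *Smad6* (0.37) rose with the genotype, and *Ski* (0.58) rose and *Smad4* (-0.37) fell with refeeding (medians -0.01 and 0.00). The calls of *Smad6* and *Smad4* were lost in 9 and 4 of the 12 fits without 1 library. That of *Smad6* was also lost with a replicate block. *Itgb8*, at 19 ± 6.2 in control and 5.32 ± 3.27 in the other genotype (SD, n = 6), was at 0 in at least 1 library, and its log2 fold change was -2.56 with a pseudocount of 0.1, where the call was lost (limma adjusted p = 0.0511), and -0.92 with a pseudocount of 10.

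Of 18 genes of retinoid storage and handling other than *Lrat*, 3 rose and 4 fell with the genotype (median 0.05). They included *Aldh1a1* (retinaldehyde dehydrogenase, -0.78), *Ttr* (transthyretin, -0.44), *Lpl* (lipoprotein lipase, 0.76) and *Rara* (a retinoic acid receptor, 0.48). With refeeding *Pnpla3*, a lipid droplet hydrolase of hepatocytes and stellate cells, rose by 2.77 (SE 0.432, limma adjusted p = 0.00189) and *Pnpla2* fell (-0.84, adjusted p = 6.73e-05), with a median of 0.01. The only tested gene of the reelin pathway, the receptor gene *Vldlr*, rose with the genotype by 1.03 (adjusted p = 0.0237), from 66.9 ± 27.8 to 135 ± 38.4 (SD, n = 6), and changed by -0.02 with refeeding. The *Vldlr* call was lost in 5 of 12 fits without 1 library. Of 6 collectins and partners 5 were called for the genotype, *Mbl1* (-0.64), *Mbl2* (-0.25, lost in 10 of 12 fits without 1 library, with no filter, with a pseudocount of 0.1 and with equal 75th percentiles) and *Masp2* (-0.18) lower and *Colec10* (0.62) and *Fcna* higher (median -0.17). None of the 6 was called for refeeding by limma, and 3 had an unadjusted p under 0.05 (median -0.09).

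Markers of the other cells of the liver were also called in both directions. Beside them, 25.3% of all genes tested were called for the genotype and 21.8% for refeeding. The Kupffer cell and portal fibroblast lists below lay near the share for the genotype. Of 9 hepatocyte markers tested 7 fell with the genotype (median -0.44), with *Cps1* (-0.69), *Ass1* (-0.66), *Alb* (-0.45) and *Fgb* (-0.45) among them, and the summed level of the list lay between 2511886 and 3277495 in control libraries and between 1874016 and 2296892 in those labelled MED13-LKO. With refeeding 4 of the 9 fell (median -0.29), *Tat* (-1.89), *Ass1* (-0.47), *Cps1* (-0.45) and *Hnf4a* (-0.29). The *Alb* call did not hold when genes of low mean were kept in the fit (limma adjusted p = 0.0844) or in 3 of 12 fits without 1 library, and the refeeding call of *Ass1* without control fasted replicate 1 or MED13-LKO fasted replicate 1. Of 14 sinusoidal endothelial markers 8 rose with the genotype and none fell (median 0.22), led by *Stab2* (0.37), *Kdr* (0.35), *Stab1* (0.33) and *Clec4g* (0.26). Their sums lay between 7886 and 9288 in control and between 9282 and 11985 in the other genotype. With refeeding 3 of the 14 fell, *Oit3* (-0.40), *Clec4g* (-0.37) and *Ptprb* (-0.25), with a median of -0.15. The *Stab1* call was lost in 6 of 12 fits without 1 library, and that of *Ptprb* without any 1 of the 4 fasted libraries.

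Of 12 Kupffer cell markers 3 rose with the genotype, *Marco* (1.22), *Cd5l* (0.63) and *Folr2* (0.51, lost in 7 of 12 fits without 1 library), with a median of 0.16 and sums of 5089 to 7209 and 6470 to 8615. *Cd163* (-0.97) fell with refeeding (median -0.14). Of 5 smooth muscle markers *Des*, *Acta2* and *Tagln* fell and *Mylk* (0.46) rose with the genotype (median -0.34), none was called for refeeding by limma or had an unadjusted p under 0.05 (median 0.10), and the defining genes *Myh11*, *Cnn1* and *Actg2* were at 0 in at least 1 library. Sums of the list, most of which is *Mylk*, lay between 1464 and 1738 in control and between 1588 and 2348 in the libraries labelled MED13-LKO. Of 3 mesothelial markers *Upk3b* (-1.08) and *Gpm6a* (-0.81) fell with the genotype (median -0.96), calls lost in 6 and 7 of 12 fits without 1 library. None of the 3 was called for refeeding by limma or had an unadjusted p under 0.05 (median -0.14). *Msln* was at 0 in at least 1 library, and the list summed to between 94.8 and 142 in control libraries and to between 35.2 and 80.6 in the others.

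Of 9 portal fibroblast markers *Gas6* (1.40, limma adjusted p = 1.24e-05) rose and *Dpt* (dermatopontin, -0.74) fell with the genotype (median 0.03), and *Col15a1* and *Gas6* (0.44, lost in 3 of 12 fits without 1 library, each a fasted one) rose with refeeding (median -0.00), with *Gli1* and *Clec3b* at 0 in at least 1 library. This list, most of which is *Gas6*, summed to between 720 and 1051 in control and to between 1403 and 2043 in the libraries labelled MED13-LKO. Among 6 cholangiocyte markers *Spp1* (osteopontin, -0.33) fell with the genotype, and the list's medians were -0.00 for the genotype and 0.23 for refeeding. The *Spp1* call was lost in 10 of 12 fits without 1 library, with no filter, with equal 75th percentiles and with a replicate block. Of 5 red cell markers 4 fell in both comparisons (medians -0.62 and -0.55), with log2 fold changes between -0.62 (*Hbb-bs*, *Hbb-bt*) and -0.80 (*Hba-a1*) for the genotype, and between -0.51 (*Hba-a2*) and -0.65 (*Hbb-bt*) for refeeding. Without 1 library the refeeding calls of *Hba-a1*, *Hba-a2*, *Hbb-bt* and *Hbb-bs* were lost in 8, 9, 5 and 3 of 12 fits, and the genotype call of *Hbb-bt* in 5. The refeeding call of *Hba-a2* was also lost with a pseudocount of 0.1, no filter, equal 75th percentiles and a replicate block (limma adjusted p up to 0.0646). These globin genes are close copies whose reads may be shared between them, and the list summed to between 8905 and 14895 in control and to between 5734 and 11173 in the other genotype. The only tested lymphocyte marker, *Ptprc*, rose by 0.33 with the genotype (lost in 8 of 12 fits without 1 library) and changed by 0.08 with refeeding. The part of hepatocyte, smooth muscle, mesothelial, portal fibroblast and blood RNA in the differences of *Col3a1*, *Dcn*, *Des* and the type I collagen chains was not tested.

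**Figure D4:**
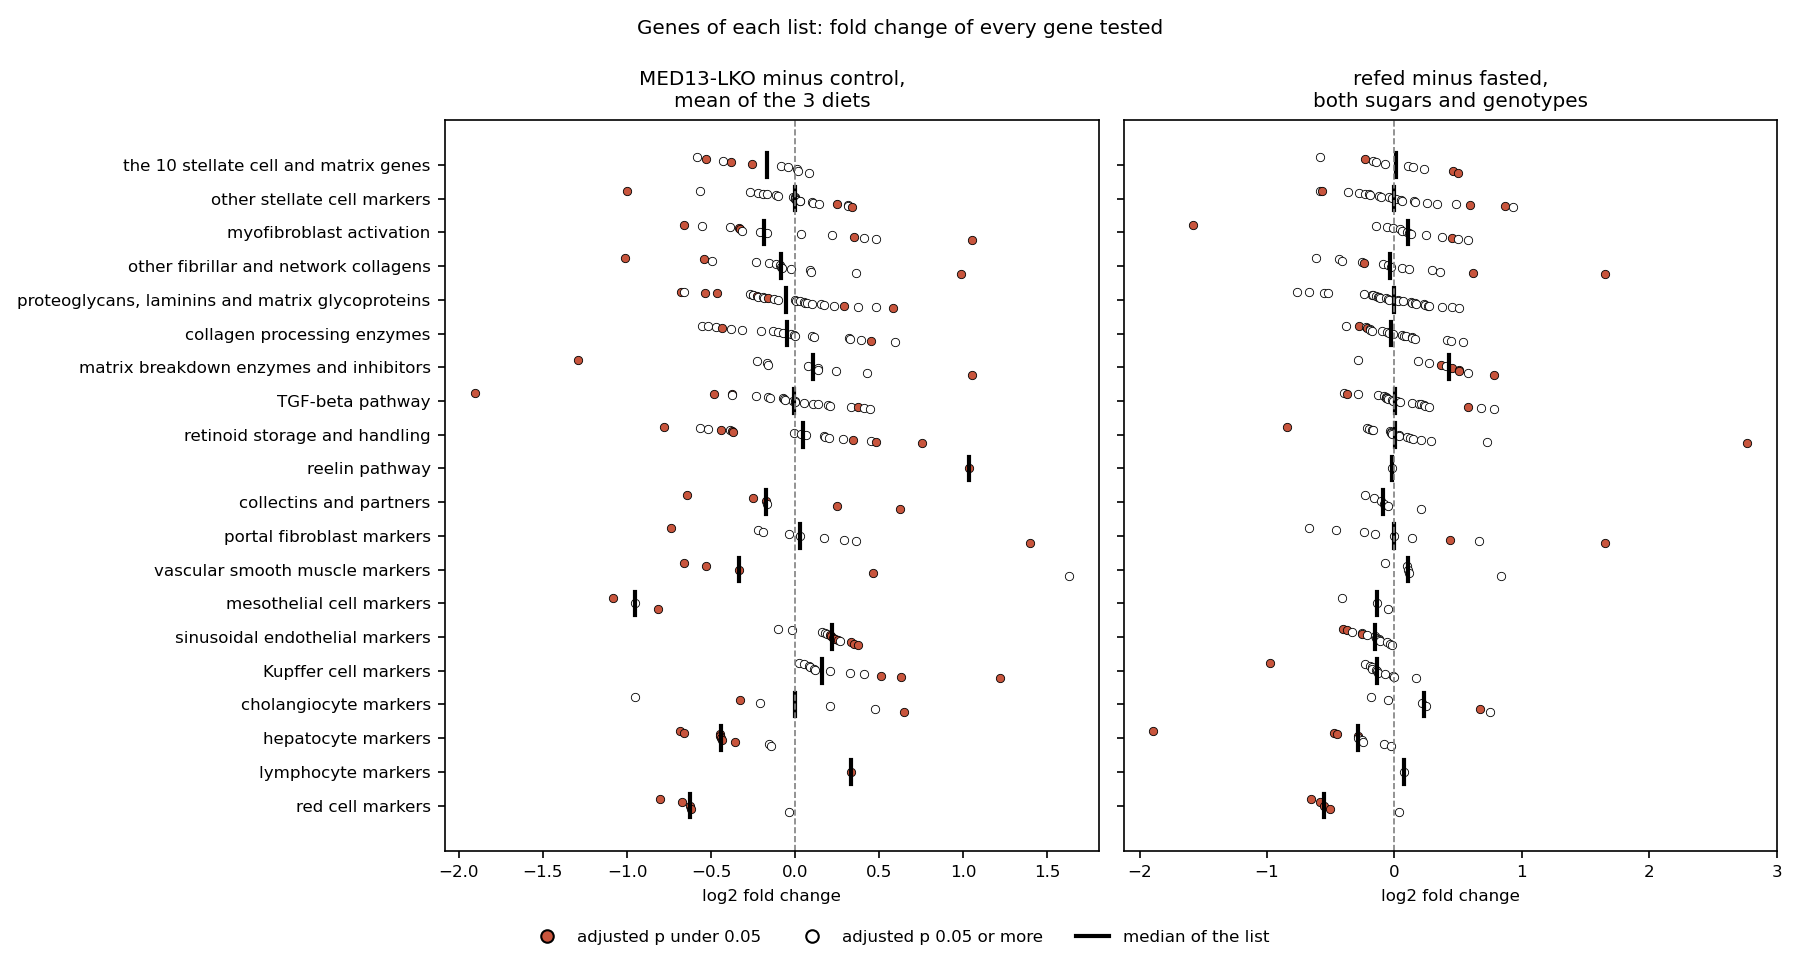
Log2 fold change (x axis) of every tested gene of the 10 genes and of the 19 other lists (y axis), for the genotype over all diets on the left and for refeeding on the right. Each point is a gene, filled points have an adjusted p under 0.05 in limma, and the vertical bar is the median of the list. Sinusoidal endothelial markers lie mostly on the higher side for the genotype (median 0.22) and hepatocyte markers on the lower side (median -0.44), while other stellate cell markers centre on -0.00.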

How the data were processed

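Total RNA of 12 mouse livers (2 per group) was sequenced, and groups and replicate numbers were taken from the labels. Per the labels' processing notes, the authors used Trim Galore 0.6.5, kallisto 0.46.0 and DESeq2 1.24.0 with mm10. They deposited normalized counts per gene (a signal that is not whole reads), already scaled between libraries. The transcript reference is not given in the sources used here. Of values under 20, between 52.7% and 58% per library were whole multiples of that library's step (tolerance 0.05), so reads were not recovered, no count test was run, and depth was estimated from 2661 genes with 1 transcript.

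Genes whose mean was 10 or more (12366) were fitted as log2(normalized count + 1) with the 6 groups in limma 3.58.1 (R 4.3.3; moderation following the mean). Fold changes are on that scale and understate changes of low genes. P-values were adjusted after Benjamini and Hochberg over all genes tested, in each of 13 contrasts, and genes under 0.05 are called. The fit was tested on simulated data. Nothing in the labels says whether mice of a group came from separate litters or were handled apart.

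Of the 16346 identifiers, 16212 had a symbol in GENCODE M21 (GRCm38), which gave positions and transcript lengths, and promoters came from RefSeq. The members and gene lists were chosen with earlier results of these data known. In each list, at most 4 called genes per contrast with the largest changes were named, and *Masp2* and *Adamts1* were added after their values were seen. Not every called gene of the cholangiocyte list is reported here. Pseudocounts of 0.1 and 10, no filter, equal 75th percentiles, a replicate block, fits of only the groups compared, and leaving out each library were tried as alternatives. Figures used Python 3.11.15 and matplotlib 3.10.9.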

Additional observations from a re-analysis of the deposited data

How the results depend on the processing

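With 2 mice per group, calls within a diet were fragile, while the 3 calls for the genotype over all diets held in every alternative tried. No alternative set the sums of the libraries equal. Leaving out 1 library gave 3 to 4 genes of the 10 called for the genotype over all diets, 0 to 2 in the fasted state, 0 to 2 with sucrose and 0 to 1 with fructose. It gave 1 to 4 for refeeding over both sugars, 0 to 1 for sucrose in control, 1 to 2 for sucrose and 0 to 2 for fructose in the libraries labelled MED13-LKO, and 0 to 1 for fructose against sucrose in those. Without a filter on low values 1 gene was called for the genotype in the fasted state (*Col3a1*) and 1 with sucrose (*Col1a1*), and equal 75th percentiles also left 1 with sucrose. A pseudocount of 10 gave 2 for fructose in the libraries labelled MED13-LKO, where *Reln* was added. Fits of only the groups compared called 0 genes for the genotype with sucrose or fructose, 0 for fructose refeeding in the libraries labelled MED13-LKO and 0 for fructose against sucrose there. For both pooled comparisons such a fit is the same as the fit of all 12 libraries.

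The replicate numbers are those of the sample titles and share only a number. In the column names of the deposited values the refed libraries carry other numbers than in the titles, and a block by those was not tried. Deviations of equal numbers correlated at -0.142 to 0.0782 over the 15 pairs of groups, and no source says what a number marks. With the replicate block 1 gene in place of 2 was called for the genotype with sucrose (*Col1a1*), 2 in place of 3 for refeeding (*Reln* was lost), and 0 in place of 1 for fructose against sucrose in MED13-LKO, and the number called did not change in the other 10 contrasts. A block with the numbers of the MED13-LKO fructose libraries crossed, chosen after seeing the data, left 1 gene called for the genotype with fructose.

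The genotype difference changed sign without 1 library for *Reln* (range -0.05 to 0.08), *Col1a2* (-0.08 to 0.10) and *Ecm1* (-0.12 to 0.03), none of them called. Of the *Dcn* values, refeeding was called without control sucrose replicate 2 (-0.20, limma adjusted p = 0.0141).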
